A study of Homo sapiens with 8 samples.

Results

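Open chromatin of A2780 cells resistant to both paclitaxel and cisplatin (dual-resistant) was set against that of A2780 cells resistant to paclitaxel alone, to ask how the chromatin of a line that also withstands cisplatin differs from that of a line selected on the taxane only. A2780 is an established human ovarian cancer cell line, labelled here with a WT genotype, and both groups derive from it. The treatment labels are Cisplatin/Paclitaxel for the 2 dual-resistant libraries and Paclitaxel for the 2 paclitaxel-resistant libraries. The series holds 8 libraries in all, and its cisplatin-resistant (treatment Cisplatin) and control (treatment NA) cells, with 2 libraries each, entered the same fit and are quoted only where they place a value. All regions with at least 1 CPM in 2 or more of the 8 libraries were compared, which kept 158698 of 159451 peaks. The labels leave unsaid whether the dual-resistant line was made from the paclitaxel-resistant one, whether drug was present at collection and whether a line is 1 clone. They also do not call the paired libraries separate cultures, and p-values then measure a spread that may be technical.

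In ATAC-seq the transposase Tn5 cuts and tags DNA that nucleosomes leave free, so reads pile up at active promoters and enhancers. Paclitaxel stabilises microtubules, and a classic route of resistance to it is the efflux pump P-glycoprotein, the product of ABCB1, which carries paclitaxel but not cisplatin out of the cell. Cisplatin crosslinks DNA, and resistance to it has been tied to copper transporters, glutathione synthesis and DNA repair. Open chromatin at a gene is a measure of access to its regulatory DNA and not of its RNA.

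The libraries held 8087535 and 9304798 reads in peaks for dual-resistant cells and 8236447 and 8898337 for paclitaxel-resistant cells, so that 1 read was worth 0.107 to 0.130 CPM (the deposited unit, reads scaled to a fixed total per library over all peaks) over the series. A count of 0 allows up to 0.322 to 0.390 CPM (3 reads per library), and these floors cover counting error only. On the log2 scale, over peaks that are not independent, libraries correlated at 0.926 within the dual-resistant and 0.933 within the paclitaxel-resistant pair, and at 0.797 to 0.804 between them. The reads were less concentrated in dual-resistant libraries, where the 1% of peaks with the most reads held 13.1% and 12.8% of reads, against 16.4% and 16.3% in paclitaxel-resistant libraries. Summed over the gene peaks (defined below) of 11 ovarian carcinoma lineage genes, the level was 54.3 and 62.0 CPM in dual-resistant and 58.8 and 54.3 CPM in paclitaxel-resistant libraries. Among these genes PAX8, a defining marker, was weak, with 1.11 and 2.26 CPM in dual-resistant and 0.486 and 0.787 CPM in paclitaxel-resistant libraries. Over 17 epithelial genes the sum was 126 and 125 CPM in dual-resistant and 130 and 127 CPM in paclitaxel-resistant libraries. Summed over 10 fibroblast marker genes the level was 104 and 105 CPM in dual-resistant and 90.6 and 91.6 CPM in paclitaxel-resistant libraries. This sum holds opposite changes, since COL1A1 and PDGFRA were called higher in dual-resistant cells and DCN and LUM lower (calls are defined below). Over 10 haematopoietic markers the sum was 98.8 and 95.3 CPM against 120 and 116 CPM, and over 4 endothelial markers 12.5 and 11.2 CPM against 16.0 and 15.2 CPM. The part of other cells in the results was not tested.

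Dual-resistant cells differed from paclitaxel-resistant cells at 22.4% of the regions compared, and many named loci differed by more than 2-fold. The block that holds the drug pump genes ABCB1 and ABCB4 was less accessible in dual-resistant cells. Chromatin at the cytosolic DNA sensors IFI16 and AIM2, the cytokine gene IL26, the collagen gene COL6A3, the cadherin genes CDH7 and CDH11, and the growth factor receptor gene PDGFRA was more accessible. The matrix proteoglycan genes LUM and DCN were less accessible. A peak counted as called where limma's p, adjusted by Benjamini-Hochberg over all peaks, was under 0.05. The fit was made on log2(CPM + 0.5), a scale that understates the change of weak peaks.

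Of the 158698 peaks, 23681 (14.9%) were called higher and 11803 (7.44%) lower in dual-resistant cells, which makes 35484 in either direction. A difference of at least 2-fold was called higher at 17848 peaks (11.2%) and lower at 6304 (3.97%). The called-higher peaks had a median of 4.98 CPM in dual-resistant and 1.52 CPM in paclitaxel-resistant cells, with 2.58 CPM in cisplatin-resistant and 2.98 CPM in control cells. The called-lower peaks had a median of 4.60 CPM in dual-resistant and 13.7 CPM in paclitaxel-resistant cells, with 5.84 CPM in cisplatin-resistant and 6.40 CPM in control cells. The order of dual- and paclitaxel-resistant cells in these medians is fixed by the call itself. Each peak's name carries the label of 1 line, and 80.3% of the called-higher peaks carry that of the dual-resistant line, which 39.6% of all tested peaks carry. Of the called-lower peaks, 84.9% carry the label of the paclitaxel-resistant line, which 36497 of the tested peaks carry. How names were given to the merged peaks is not stated in the labels.

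The direction depended on the strength of the peak. In the strongest 10% of peaks, with a mean of at least 12.7 CPM, 8.06% were called higher and 30.1% lower, and the median log2 difference was -0.17. In the 8 weakest of 10 equal bins the median log2 difference was 0.20 to 0.33. The median over all peaks was 0.23, and it was -0.00 after cyclic loess, 0.01 after quantile and 0.02 after median-ratio scaling. With these scalings the split was 12482 higher (7.87%) and 13671 lower (8.61%) for loess, 12354 (7.78%) and 12118 (7.64%) for quantile, and 14243 (8.97%) and 19609 (12.4%) for median-ratio scaling. Counts in each direction therefore rest on the scaling. Differences at single loci are given below without rescaling, except where a scaling is named. After loess scaling the 12 most raised gene peaks, described below, differed by 3.08 (AIM2) to 4.15 (TYRP1) and the 12 most lowered by -4.12 (LIPK) to -3.14 (SOCS6).

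**Figure D1:**
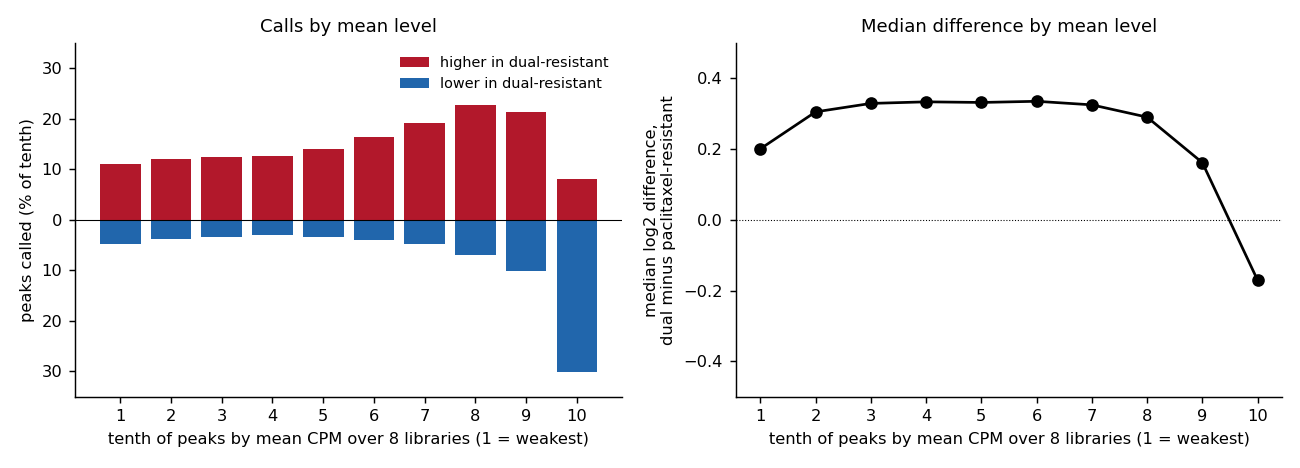
Left, the share of peaks called higher (bars above 0) and lower (bars below 0) in dual-resistant against paclitaxel-resistant cells, in % of each of 10 equal bins of the 158698 peaks ordered by mean CPM over 8 libraries. Right, the median log2 difference of each bin. The strongest bin holds 30.1% called lower and has a median of -0.17.

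Each protein-coding gene was represented by its gene peak, the strongest tested peak within 1 kb of a RefSeq transcription start or, for genes without a listed start, of either end of the gene. Of 15464 genes with such a peak, 1087 (7.03%) were called higher and 3786 (24.5%) lower in dual-resistant cells. At 2-fold or more the counts were 543 higher (3.51%) and 348 lower (2.25%). The median gene peak differed by -0.15, and by -0.01 after loess, 0.00 after quantile and -0.39 after median-ratio scaling. The counts were 1212 higher (7.84%) and 1833 lower (11.9%) after loess scaling and 592 higher (3.83%) and 7486 lower (48.4%) after median-ratio scaling.

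The ABCB1 and ABCB4 block on chromosome 7 was lower in dual-resistant cells. Genes and stretches whose peaks are summed or counted below were chosen after their values were seen. Across the 28 peaks inside ABCB1, the summed level was 87.9 and 93.5 CPM in dual-resistant libraries, against 371 and 379 CPM in paclitaxel-resistant libraries. Control libraries had 56.5 and 61.3 CPM there and cisplatin-resistant libraries 66.7 and 79.2 CPM. Of these 28 peaks 23 were called lower and 0 higher in dual-resistant cells, with a median log2 difference of -1.42. ABCB4 encodes a phospholipid pump of the bile duct membrane and lies next to ABCB1. Inside ABCB4, 36 of 47 peaks were lower and 1 higher, and the summed level was 122 and 110 CPM in dual-resistant libraries, against 538 and 524 CPM in paclitaxel-resistant libraries and 38.5 and 30.1 CPM in control libraries. Both groups of summed values lay apart without overlap, with the dual-resistant libraries between control and paclitaxel-resistant ones.

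The strongest peak inside ABCB1 (chr7:87627559-87628559) is also the gene peak of RUNDC3B, a gene of the facing strand whose function is little known. It had 25.8 and 28.1 CPM in dual-resistant libraries, against 106 and 116 CPM in paclitaxel-resistant libraries, and averaged 20.2 CPM in control cells. The log2 difference was -2.02 (SE 0.13, limma adjusted p = 2.42e-25) and -1.82 after loess scaling. The most reduced peak of the block, inside ABCB4 (chr7:87440446-87441446), had 0.371 and 0.215 CPM in dual-resistant libraries and 34.8 and 32.4 CPM in paclitaxel-resistant libraries (log2 difference -5.43, SE 0.46, adjusted p = 2.75e-18). The neighbouring ABCB4 peak at chr7:87448127-87449127 fell less far, with 13.7 and 11.5 CPM in dual-resistant libraries, against 118 and 111 CPM in paclitaxel-resistant and a mean of 0.905 CPM in control libraries. CROT, a peroxisomal fatty acid transferase gene on the far side of ABCB4, had 54.3 and 54.1 CPM in dual-resistant libraries and 151 and 150 CPM in paclitaxel-resistant libraries (-1.47, SE 0.09, adjusted p = 4.85e-27).

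Of the 14 genes of this neighbourhood with a gene peak 8 were lower and 0 higher, against 24.5% and 7.03% of all genes. Among the 8, DBF4 and SLC25A40 share the same gene peak. After subtraction of the median of each 5 Mb region 2 of the 14 were lower and 3 higher, with a median of 0.34. This subtraction was made only in regions with at least 50 tested peaks. Over all genes in such regions, 7006 were lower and 549 higher after it, with a median of -0.37. The gene peak at the upstream RefSeq start of ABCB1 (chr7:87714059-87715059) was weak, with 2.23 and 2.79 CPM in dual-resistant libraries and 2.91 and 3.37 CPM in paclitaxel-resistant libraries. It was not called (-0.28, adjusted p = 0.663), and it does not stand for the other peaks inside the gene. The peak at chr7:87600242-87601242 had 9.03 and 12.6 CPM in dual-resistant libraries, against 71.1 and 72.1 CPM in paclitaxel-resistant libraries. It differed by -2.69 (SE 0.18, limma adjusted p = 4.89e-25), and by -1.79 after subtraction of the 5 Mb median. The gene peak of ABCB4 (chr7:87474545-87475545), a gene without a listed start, lies at the end that faces ABCB1. It differed by -1.17 (SE 0.29, adjusted p = 0.00118) but was not called without dual-resistant library 2 (-0.93). The 5 Mb around the block had a median log2 difference of -0.90 over 162 peaks, 75 of them lower and 4 higher. After subtraction of that regional median RUNDC3B stayed lower (-1.12, adjusted p = 1.32e-11) and the ABCB4 gene peak was not called (-0.27, adjusted p = 0.596). More copies of a region and more access per copy give the same rise in reads and cannot be told apart here.

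**Figure D2:**
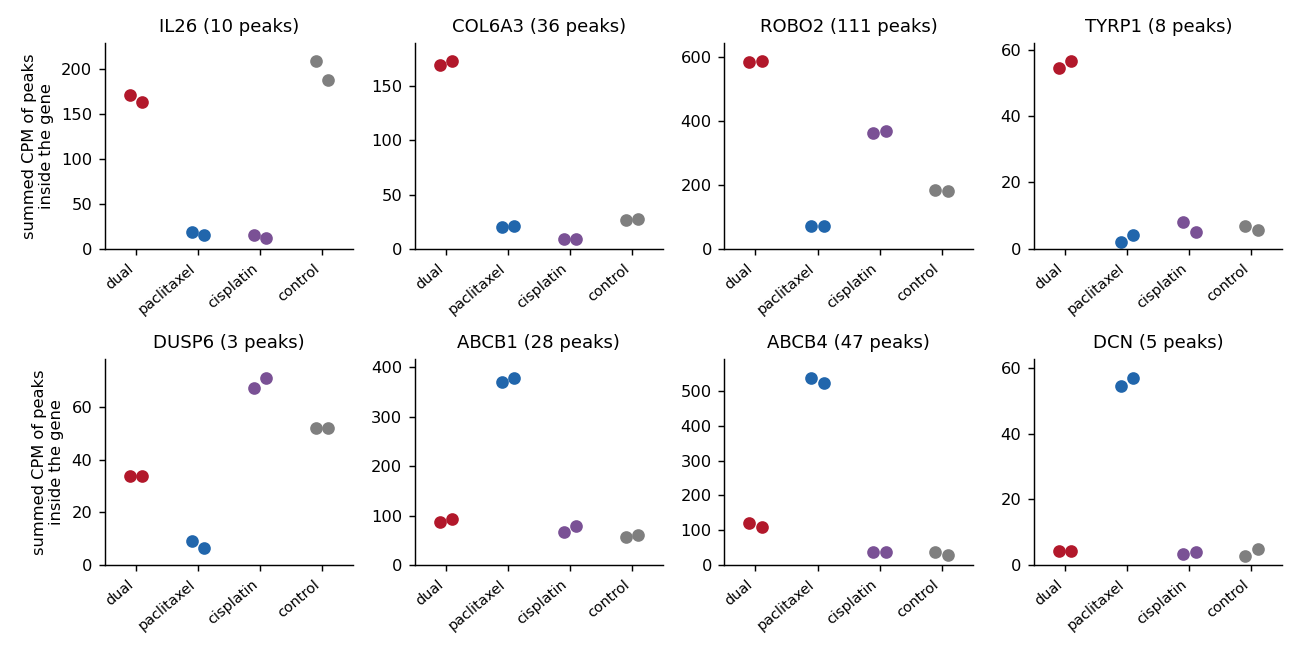
Summed CPM of all tested peaks inside 8 genes, 1 point per library, with dual-resistant libraries at the left of each panel, then paclitaxel-resistant, cisplatin-resistant and control libraries. At IL26 the dual-resistant libraries (171 and 163 CPM) lie near control (208 and 188 CPM), and at ABCB1 and ABCB4 they lie far below the paclitaxel-resistant ones.

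Among other genes tied to the 2 drugs some gene peaks were called and most were not. SLC7A11, the cystine carrier that feeds glutathione synthesis, had 7.91 and 6.66 CPM in dual-resistant libraries, against 2.91 and 2.47 CPM in paclitaxel-resistant libraries (log2 difference 1.29, SE 0.18, adjusted p = 9.85e-09). Both lines were far below control cells, with a mean of 34.4 CPM, and cisplatin-resistant cells, with 42.4 CPM. CDKN1A, the cell cycle inhibitor p21, had 20.8 and 22.1 CPM in dual-resistant and 38.9 and 39.3 CPM in paclitaxel-resistant libraries (-0.85, SE 0.14, adjusted p = 5.40e-07). The copper exporter gene ATP7B differed by -0.38 (adjusted p = 0.0048), a call that was lost after loess scaling (-0.11), without dual-resistant library 1 (limma adjusted p = 0.0783) and without paclitaxel-resistant library 1 (adjusted p = 0.164). CYP1B1, a cytochrome P450 gene, had 31.4 and 32.7 CPM in dual-resistant libraries, against 15.2 and 13.04 CPM in paclitaxel-resistant libraries (1.16, SE 0.13, adjusted p = 7.05e-13). No call was made at the gene peaks of ABCC1 (-0.51), ABCG2 (-0.51), ALDH1A1 (-1.04), ATP7A (-0.12), ERCC1 (-0.03), GSTP1 (-0.09), the copper importer SLC31A1 (-0.23) or TUBB3 (-0.17), a tubulin gene often tied to taxane resistance. Away from its gene peak, all 4 distal peaks of ALDH1A1 were lower, and 1 of 2 at ATP7A was higher.

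Repair, glutathione and tubulin genes were lower more often than higher, as were all genes. Lower and higher counts were 7 and 0 of 18 for homologous and crosslink repair, 5 and 0 of 10 for mismatch repair and 4 and 0 of 13 for nucleotide excision repair, beside 24.5% lower and 7.03% higher of all genes. After loess scaling, with 11.9% of all genes lower and 7.84% higher, these counts were 2 and 1, 2 and 0, and 2 and 2, and the median of the excision repair genes, at -0.17, stood at 0.12 after that scaling. Of 19 glutathione and NRF2 genes 8 were lower, GSTA4 (-0.85) and NFE2L2 (-0.71) among them, and SLC7A11 was the 1 higher. Only 3 of the 19 were lower after loess scaling, beside 11.9% of all genes, and 2 after quantile scaling, with 1 higher in both. Of 14 tubulin genes 4 were lower, close to the share over all genes, and the 2 that differed by 2-fold both lie on chromosome 6. TUBB, the main beta-tubulin, had 32.1 and 37.5 CPM in dual-resistant libraries and 71.3 and 72.8 CPM in paclitaxel-resistant libraries (-1.04), and TUBB2B differed by -1.13. After subtraction of the chromosome's median these values were -0.67 and -0.76, and both stayed called. Of 18 housekeeping genes 10 were lower and 1 higher, with a median of -0.29, and 6 and 2 after loess scaling. Of 18 p53 target genes 5 were lower and 1 higher, and after loess scaling 2 were lower and 3 higher.

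The gene peaks with the largest gains belonged to genes of unlike function. TYRP1, an enzyme gene of melanin synthesis, had 14.3 and 14.6 CPM in dual-resistant libraries, against 0.243 and 0.112 CPM in paclitaxel-resistant libraries (log2 difference 4.47, SE 0.44, adjusted p = 6.44e-15). The pooled reads were 252 in dual-resistant and 3 in paclitaxel-resistant libraries, a ratio of 82.8 (exact 95% interval 28.0 to 404, counting error only). All 8 peaks inside TYRP1 were higher, and control cells averaged 1.30 CPM at its gene peak. CREBZF, a transcription factor gene, had 13.6 and 15.6 CPM in dual-resistant libraries and 0.243 and 0.225 CPM in paclitaxel-resistant libraries (4.36). The zinc finger genes ZNF439 (4.08), ZNF69 (3.92), ZNF354C (3.83) and ZNF470 (3.35) were also among the 12. ZNF439 had 15.1 and 16.4 CPM in dual-resistant libraries, against 0.607 and 0.337 CPM in paclitaxel-resistant libraries and a mean of 19.5 CPM in control cells. ZNF69 had 20.4 and 31.2 CPM in dual-resistant libraries, against 0.971 and 1.46 CPM in paclitaxel-resistant libraries and 0.779 CPM in control cells. A shared gene peak of the clustered protocadherins PCDHGA12 and PCDHGC5 differed by 3.52, and the zinc finger homeobox gene ZFHX4 by 3.49.

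**Figure D3:**
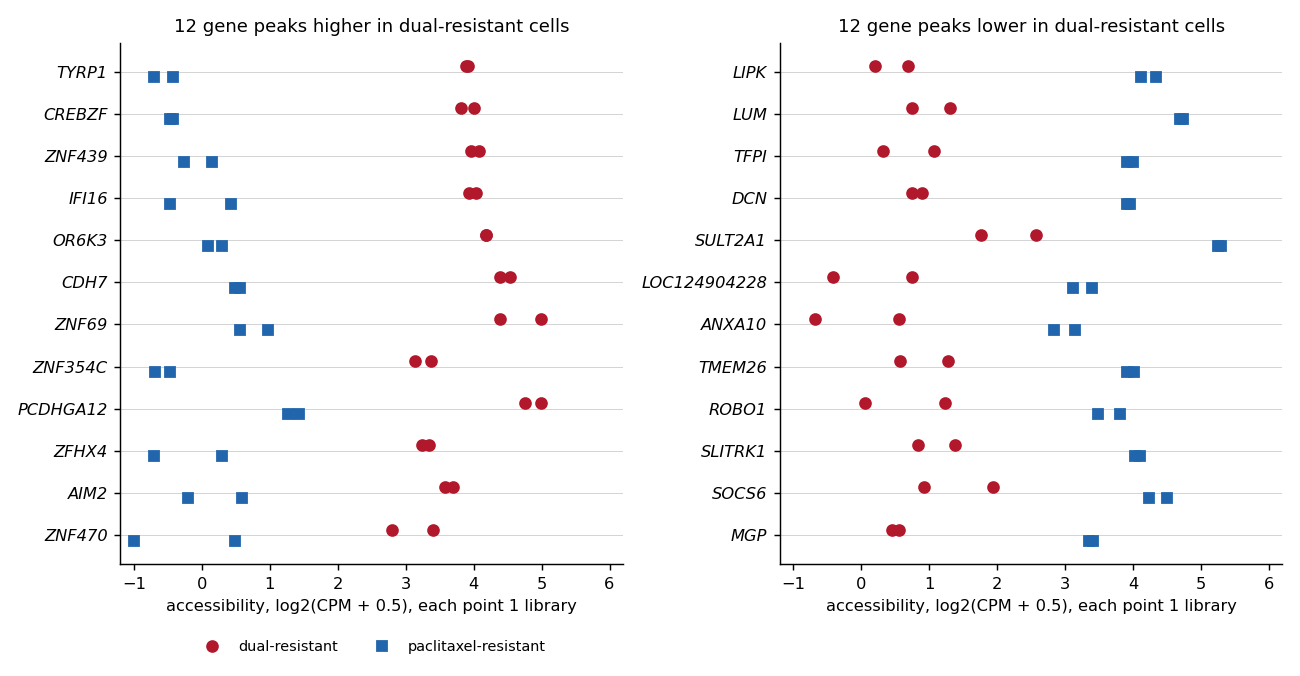
Accessibility, as log2(CPM + 0.5), at the 12 gene peaks with the largest rise (left) and the 12 with the largest fall (right) in dual-resistant cells. Circles are dual-resistant libraries, drawn above the squares of paclitaxel-resistant libraries, with 1 point per library. In no row do the circles and squares overlap along the axis, which the choice of these genes required.

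A block on chromosome 1 joined an olfactory receptor gene and 2 sensors of DNA. IFI16 had 15.8 and 14.7 CPM in dual-resistant libraries, against 0.850 and 0.225 CPM in paclitaxel-resistant libraries (3.99, SE 0.33, adjusted p = 7.08e-19). AIM2, which starts the inflammasome on cytosolic DNA, had 11.5 and 12.5 CPM in dual-resistant libraries, against 0.364 and 1.01 CPM in paclitaxel-resistant libraries (3.45, SE 0.39, adjusted p = 3.32e-12). OR6K3 differed by 3.99. Between OR6K3 and AIM2, over 356 kb, 21 of 24 peaks were higher and 0 lower, and the median peak had 4.15 CPM in dual-resistant, 0.568 CPM in paclitaxel-resistant and 1.58 CPM in control cells. Among 25 interferon-stimulated genes 8 were higher and 3 lower, against 7.03% higher and 24.5% lower of all genes. The 8 included IFITM3 (1.17), IFITM1 (0.92), ISG20 (0.93), BST2 (0.83) and IFIH1 (0.80), and IFIT3 fell by 1.30. After loess scaling 7 were higher and 2 lower, against 7.84% and 11.9% of all genes. After median-ratio scaling 4 were higher and 5 lower, against 3.83% and 48.4% of all genes. IFITM3 had 11.9 and 16.7 CPM in dual-resistant libraries, against 5.95 and 5.96 CPM in paclitaxel-resistant libraries and a mean of 25.3 CPM in control cells.

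The stretch from IFNG to IL26 on chromosome 12, which holds the gene of interferon gamma and that of a cytokine of the interleukin-10 family, was higher at 18 of 19 peaks. A peak inside IL26 (chr12:68208921-68209921) had 44.0 and 37.0 CPM in dual-resistant libraries, against 0.728 and 0.225 CPM in paclitaxel-resistant libraries (5.44, SE 0.27, adjusted p = 4.46e-34). Control cells averaged 48.2 CPM and cisplatin-resistant cells 0.511 CPM at this peak. A peak near IFNG (chr12:68162312-68163312) had 27.6 and 22.0 CPM in dual-resistant libraries and 0.121 and 0 CPM in paclitaxel-resistant libraries, and here control cells averaged 3.68 CPM. With 1 read in the paclitaxel-resistant pair, its ratio was 422 (exact 95% interval 75.3 to 16693). The same cytokine stretch thus held both a peak at the control level and a peak above it.

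Genes of the cell surface and matrix were among the gains. CDH7 had 22.8 and 20.5 CPM in dual-resistant libraries, against 0.971 and 0.899 CPM in paclitaxel-resistant libraries (3.95, SE 0.42, adjusted p = 3.00e-13). CDH11, a cadherin of mesenchymal cells, had 6.55 and 9.56 CPM in dual-resistant and 0 and 1.35 CPM in paclitaxel-resistant libraries (3.13, and not called by DESeq2 with adjusted p = 0.0541). Of 14 cadherin genes 4 were higher (CDH7, CDH11, CDH10 and DSC2) and 1 lower, against 7.03% and 24.5% of all genes, and with DESeq2 DSC2 was not called either (adjusted p = 0.0782). COL6A3, a chain of collagen VI, had 16.4 and 14.1 CPM in dual-resistant libraries, against 1.21 and 1.46 CPM in paclitaxel-resistant libraries (3.10, SE 0.41, adjusted p = 1.14e-09). Inside COL6A3 34 of 36 peaks were higher, with a summed level of 169 and 172 CPM in dual-resistant libraries, against 20.5 and 21.02 CPM in paclitaxel-resistant and 26.8 and 27.3 CPM in control libraries. Of 28 collagen and proteoglycan genes 6 were higher, COL11A1 (2.32), COL1A1 (0.98) and COL14A1 (0.70) among them, and 5 lower.

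Single growth factor and signalling genes differed in both directions. PDGFRA, a receptor of platelet-derived growth factors, had 45.7 and 44.7 CPM in dual-resistant libraries, against 9.59 and 9.22 CPM in paclitaxel-resistant libraries (2.21, SE 0.15, adjusted p = 8.92e-25). PDGFC, which encodes a ligand of that receptor, had 13.7 and 12.8 CPM in dual-resistant libraries and 0.728 and 2.02 CPM in paclitaxel-resistant libraries (2.97, SE 0.33, adjusted p = 1.18e-12). The hepatocyte growth factor gene HGF, on chromosome 7, was lower at its gene peak, with 18.2 and 16.9 CPM in dual-resistant libraries, against 38.1 and 42.8 CPM in paclitaxel-resistant libraries (-1.18). Inside HGF 6 of 34 peaks were lower and 0 higher. Of its 60 distal peaks 23 were lower and 0 higher, but 8 lower and 4 higher after subtraction of 5 Mb medians. Among 39 receptor tyrosine kinase and ligand genes 5 were higher and 9 lower, beside 7.03% and 24.5% of all genes. DUSP6, a phosphatase gene induced by ERK signalling that acts back on ERK, had 26.1 and 25.6 CPM in dual-resistant libraries, against 6.43 and 3.82 CPM in paclitaxel-resistant libraries (2.27, SE 0.15, adjusted p = 5.84e-25), with 42.9 CPM in control cells. It was the only gene called higher of 13 ERK feedback genes, of which 4 were lower. After loess scaling 3 were higher and 1 lower, beside 7.84% and 11.9% of all genes.

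Developmental genes moved in both directions. LIN28A, an RNA-binding protein gene of early development, had 21.9 and 22.4 CPM in dual-resistant libraries, against 3.52 and 3.48 CPM in paclitaxel-resistant libraries and a mean of 23.4 CPM in control cells (2.50, SE 0.23, adjusted p = 7.71e-17). PAX2, a kidney and genital tract transcription factor gene, had 9.15 and 12.3 CPM in dual-resistant and 2.91 and 2.02 CPM in paclitaxel-resistant libraries, with 13.3 CPM in control cells (1.92). HOXD10 had 22.1 and 23.9 CPM in dual-resistant and 6.07 and 4.72 CPM in paclitaxel-resistant libraries (2.003), and HOXD8 differed by 1.69. From HOXD1 to HOXD13 29 of 36 peaks were higher and 0 lower. Of 34 HOX genes 5 were higher, 4 of them in the HOXD cluster, and 7 lower, all of them in the HOXA and HOXB clusters. Of all genes 7.03% were higher and 24.5% lower. After loess scaling 2 HOX genes were higher and 11 lower, beside 7.84% and 11.9% of all genes.

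The 12 gene peaks with the largest falls belonged to genes of unlike function, with LIPK, LUM and TFPI lowest. LIPK, an epidermal lipase gene, had 1.11 and 0.645 CPM in dual-resistant libraries, against 16.9 and 19.8 CPM in paclitaxel-resistant libraries (-3.79, SE 0.31, adjusted p = 9.46e-19). LUM, which encodes the collagen-binding proteoglycan lumican, had 1.98 and 1.18 CPM in dual-resistant libraries, against 26.2 and 25.4 CPM in paclitaxel-resistant libraries (-3.69, SE 0.33, adjusted p = 8.37e-17) and a mean of 1.42 CPM in control cells. DCN, which encodes decorin, had 1.36 and 1.18 CPM in dual-resistant libraries and 14.6 and 15.1 CPM in paclitaxel-resistant libraries (-3.11, SE 0.43, adjusted p = 3.69e-09), with 0.515 CPM in control cells. All 3 peaks inside LUM and all 5 inside DCN were called lower. DUSP6, on the same arm of chromosome 12, rose, and between DUSP6 and DCN, over 1830 kb, 13 of 55 peaks were higher and 23 lower. MGP, an inhibitor of calcification, differed by -2.88.

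TFPI, an inhibitor of blood clotting, had 1.61 and 0.752 CPM in dual-resistant libraries, against 15.5 and 14.5 CPM in paclitaxel-resistant libraries (-3.26, SE 0.42, adjusted p = 4.06e-10). SULT2A1, a steroid sulfotransferase gene, had 5.44 and 2.90 CPM in dual-resistant libraries, against 39.0 and 37.5 CPM in paclitaxel-resistant libraries (-3.11, SE 0.27, adjusted p = 1.11e-17). SOCS6, a suppressor of cytokine signalling gene, had 3.34 and 1.40 CPM in dual-resistant libraries and 22.2 and 18.4 CPM in paclitaxel-resistant libraries (-2.94). At LIPK, LUM, DCN, TFPI, SULT2A1, ANXA10, SLITRK1 and MGP the dual-resistant line was not called different from control, with adjusted p of 0.110 to 0.988. The other 4 were called lower than control, LOC124904228 (adjusted p = 2.26e-16), ROBO1 (0.00204), TMEM26 (0.0137) and SOCS6 (0.0322). That comparison shares the dual-resistant libraries with this one. LOC124904228 (-3.09), TMEM26 (-3.04) and ROBO1 (-3.00) completed the 12 lowest together with ANXA10 (-3.06) and SLITRK1 (-2.96), a neuronal membrane protein gene.

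The promoters of the first 3 genes of each direction with a RefSeq entry are printed to show the base composition that the next comparison turns on. Each is the 250 bases before the start, 5′ to 3′ along the gene's strand, on GRCh38.p14, with every CpG dinucleotide in capitals. The 3 of the higher genes are TYRP1 (chr9:12693135-12693384, plus strand), CREBZF (chr11:85682864-85683113, minus strand) and ZNF439 (chr19:11848476-11848725, plus strand). The 3 of the lower genes are LIPK (chr10:88705999-88706248, plus strand), TFPI (chr2:187554436-187554685, minus strand) and SULT2A1 (chr19:47886316-47886565, minus strand).
TYRP1: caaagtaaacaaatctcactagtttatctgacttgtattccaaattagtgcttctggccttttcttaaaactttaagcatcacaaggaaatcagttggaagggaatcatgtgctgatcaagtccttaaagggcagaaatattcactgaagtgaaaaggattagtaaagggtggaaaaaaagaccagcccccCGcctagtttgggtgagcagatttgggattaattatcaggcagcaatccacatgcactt
CREBZF: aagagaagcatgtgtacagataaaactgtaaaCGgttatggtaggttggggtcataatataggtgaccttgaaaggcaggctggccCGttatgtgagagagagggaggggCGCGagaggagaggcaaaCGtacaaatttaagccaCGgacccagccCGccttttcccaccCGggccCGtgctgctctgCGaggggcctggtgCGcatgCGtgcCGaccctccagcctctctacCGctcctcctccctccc
ZNF439: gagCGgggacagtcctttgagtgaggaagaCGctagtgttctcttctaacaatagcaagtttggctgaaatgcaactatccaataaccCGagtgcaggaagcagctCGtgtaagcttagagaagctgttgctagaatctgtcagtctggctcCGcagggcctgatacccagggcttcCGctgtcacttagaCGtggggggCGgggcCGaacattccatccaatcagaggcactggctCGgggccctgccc
LIPK: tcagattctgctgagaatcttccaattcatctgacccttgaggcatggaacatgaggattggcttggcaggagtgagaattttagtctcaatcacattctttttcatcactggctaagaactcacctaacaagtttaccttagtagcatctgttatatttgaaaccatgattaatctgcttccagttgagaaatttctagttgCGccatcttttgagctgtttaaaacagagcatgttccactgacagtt
TFPI: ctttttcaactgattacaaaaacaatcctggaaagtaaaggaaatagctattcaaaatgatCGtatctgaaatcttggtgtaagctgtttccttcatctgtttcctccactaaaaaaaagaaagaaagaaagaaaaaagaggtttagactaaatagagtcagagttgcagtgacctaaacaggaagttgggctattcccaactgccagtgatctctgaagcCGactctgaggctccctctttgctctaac
SULT2A1: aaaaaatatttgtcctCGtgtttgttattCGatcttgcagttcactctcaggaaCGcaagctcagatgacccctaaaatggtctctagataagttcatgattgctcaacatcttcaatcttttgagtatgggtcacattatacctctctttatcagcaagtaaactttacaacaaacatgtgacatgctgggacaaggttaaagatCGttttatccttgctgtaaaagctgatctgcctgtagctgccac

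These windows held 1 CpG in TYRP1, 14 in CREBZF and 10 in ZNF439, and 1 in LIPK, 2 in TFPI and 4 in SULT2A1. Of 9 motifs searched on both strands, ZNF439 held GGGCGG (GC box), AACAAT (SOX) and GGAATG (TEAD) and TFPI held AACAAT, and the other 4 windows held none. The centre of the gene peak lay 813 bases from the start in TYRP1 and 511 bases in SULT2A1, and in these genes the printed window and the gene peak do not overlap.

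Over all 12313 genes with a RefSeq start and a gene peak, promoters of called-higher genes were poorer in CpG. Windows of 300 bases, 250 before and 50 after the start, had a median observed over expected CpG ratio of 0.63 in the 780 called-higher genes and 0.85 in the 3221 called-lower genes, with 0.83 over all. For differences of at least 2-fold the ratio was 0.45 in 385 higher genes and 0.80 in 297 lower genes. The GC box GGGCGG was present in 51.2% of higher and 76.1% of lower promoters, against 69.9% of all. The ETS motif CCGGAA was present in 14.2% of higher and 31.1% of lower promoters (27.7% of all), and CACGTG (E-box) in 9.49% and 9.84% (9.86% of all). The AP-1 motif TGACTCA was present in 5.77% of higher and 2.02% of lower promoters, against 3.05% of all, and AACAAT in 7.82% and 4.41% (4.89% of all). TGTGGT (RUNX) was present in 12.1% and 8.38% (9.23% of all), GGAATG in 14.1% and 10.6% (10.9%), TATAAA in 7.56% and 5.37% (5.86%), and TGACGTCA (CRE) in 1.28% and 3.29% (3.17%). Motifs were counted on both strands with overlaps allowed, and these shares are descriptions with no test. Of the 10 bins by mean CPM, the weakest had 11.1% called higher, bin 8 had 22.6% and the strongest 8.06%. The part of peak strength in these motif and CpG values was not tested.

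Away from gene starts and ends, inside genes or between them, 105468 distal peaks had their nearest protein-coding gene within 100 kb, and 15375 (14.6%) were higher and 4937 (4.68%) lower. The genes with the most higher distal peaks were PAX2 (55 of 73), SIPA1L2 (52 of 53), DLG1 (51 of 59) and MELTF (48 of 54), with 0 lower at each. With 5 Mb medians subtracted, 49 were higher at PAX2, 35 at SIPA1L2, 20 at DLG1 and 29 at MELTF, and 0 lower. SIPA1L2 encodes a GTPase-activating protein of neurons, DLG1 a scaffold protein of cell polarity and MELTF a membrane-bound iron-binding protein. SIPA1L2 also had a higher gene peak, with 34.0 and 39.3 CPM in dual-resistant libraries and 8.98 and 8.88 CPM in paclitaxel-resistant libraries (1.97). DLG1 did not, with 63.6 and 63.7 CPM in dual-resistant libraries and 56.6 and 62.5 CPM in paclitaxel-resistant libraries (0.10, adjusted p = 0.519), and its sign turned to -0.15 after median-ratio scaling. The genes with the most lower distal peaks were ABCB4 (47 of 64, with 1 higher), HMGA2 (28 of 96, with 3 higher), KAT6B (25 of 35) and LRRC4C (25 of 35). With 5 Mb medians subtracted, 15 were lower and 1 higher at ABCB4. In that setting 33 were lower at HMGA2, 26 at KAT6B and 24 at LRRC4C, and 0 higher. HMGA2 encodes an architectural chromatin protein, KAT6B a histone acetyltransferase and LRRC4C a synaptic adhesion protein. LRRC4C was lower at its gene peak too, with 7.30 and 7.20 CPM in dual-resistant libraries, against 40.8 and 44.5 CPM in paclitaxel-resistant libraries and 34.0 CPM in control cells (-2.48, SE 0.16, adjusted p = 3.25e-25). Peaks near 1 gene share their neighbourhood and are not independent.

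Distal peaks had the direction of the gene peak at some named genes and not at others. At TYRP1 31 of 32, at COL6A3 44 of 46 and at PDGFC 35 of 44 distal peaks were higher and 0 lower. At DCN 16 of 17 and at LUM 10 of 10 were lower and 0 higher. CYP1B1 went the other way, since its gene peak was higher while 20 of its 35 distal peaks were lower and 6 higher. SULT2A1, lower at its gene peak, had 4 of 22 distal peaks higher and 3 lower, and CROT had 2 of 6 higher and 1 lower. IER3, an immediate early gene with a lower gene peak (-1.43), had 2 of 8 higher and 0 lower, and SLC7A11 had 0 of 10 called. At ROBO1, which encodes a receptor of axon guidance, the strongest peak at its RefSeq start had 1.85 and 0.537 CPM in dual-resistant libraries, against 13.5 and 10.7 CPM in paclitaxel-resistant libraries. That peak does not stand for the gene, since inside ROBO1 15 of 69 peaks were higher and 20 lower, with a median of 0.46. The strongest peak inside ROBO1 (chr3:79019124-79020124) was not called (0.26, limma adjusted p = 0.110), and differed by 0.46 after loess scaling (adjusted p = 0.00256). The neighbouring ROBO2 was higher at 97 of 111 peaks inside the gene and lower at 0.

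The 5 peaks with the largest rise anywhere lay near IFNG, GXYLT1 and CDH11 and inside ROBO2 and IL26, with log2 differences of 5.44 to 5.50. The peak near CDH11 (chr16:64362158-64363158) had 31.3 and 26.1 CPM in dual-resistant libraries, against 0.364 and 0 CPM in paclitaxel-resistant libraries and a mean of 0.390 CPM in control cells. Its pooled reads were 496 in dual-resistant and 3 in paclitaxel-resistant libraries (ratio 163, exact 95% interval 55.4 to 793). The 5 with the largest fall lay inside AOPEP and ABCB4 and near NOVA1, PTBP2 and BMPER, with log2 differences of -5.41 to -5.80. The peak inside AOPEP (chr9:94754746-94755746) had 0.124 and 0.430 CPM in dual-resistant libraries, against 44.2 and 40.01 CPM in paclitaxel-resistant libraries and 0.579 CPM in control cells. The peak near PTBP2 (chr1:95984639-95985639) had 0.495 and 0 CPM in dual-resistant libraries, against 28.5 and 30.7 CPM in paclitaxel-resistant libraries and 39.8 CPM in control cells. In dual-resistant cells the AOPEP peak was thus near the control level, and the PTBP2 peak was below every other line.

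Differences ran in long blocks. Over 578 regions of 5 Mb with at least 50 tested peaks, the regional median log2 difference was 0.28 in the middle region, with quartiles of 0.15 and 0.42, and ranged from -1.33 to 2.31. The highest region, chromosome 16 from 60 to 65 Mb, had 55 of 77 peaks higher and 0 lower. Its median peak was at 4.95 and 5.27 CPM in dual-resistant libraries, against 0.486 and 0.450 CPM in paclitaxel-resistant and 0.650 and 0.515 CPM in control libraries. It is a gene-poor stretch between the cadherin genes CDH8 and CDH11, and between these genes, over 3087 kb, 69 of 84 peaks were higher and 0 lower. The next were chromosome 4 from 30 to 35 Mb (median 1.77), around the protocadherin gene PCDH7, and chromosome 18 from 65 to 70 Mb (1.60). The gene peak of the BMP receptor gene BMPR1B, also on chromosome 4, rose by 1.33 but stood at -0.16 after subtraction of the median of its 5 Mb region.

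The lowest region, chromosome 14 from 25 to 30 Mb near NOVA1, had a median of -1.33, with 97 of 183 peaks lower and 3 higher. Its median peak was at 0.866 and 0.860 CPM in dual-resistant libraries, against 4.49 and 4.50 CPM in paclitaxel-resistant libraries and 1.30 and 1.54 CPM in control libraries. Next came chromosome 18 from 70 to 75 Mb (-1.10), chromosome 6 from 135 to 140 Mb (-1.02) and the ABCB1 region (-0.90). In the chromosome 6 region 18 of 22 genes with a gene peak were lower and 1 was higher, beside 24.5% lower and 7.03% higher of all genes. Among the lower were MYB (-2.30), IFNGR1 (-1.04) and CITED2 (-1.49). The region was picked for its low median, so a high share of lower genes follows in part from that choice. On chromosome 18 the sign changed within a few Mb. In the 1 Mb step from 67 Mb 57 of 62 peaks were higher and 0 lower, with a median of 2.39, and in the step from 69 Mb 21 of 26 were lower and 0 higher, with a median of -2.36.

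**Figure D4:**
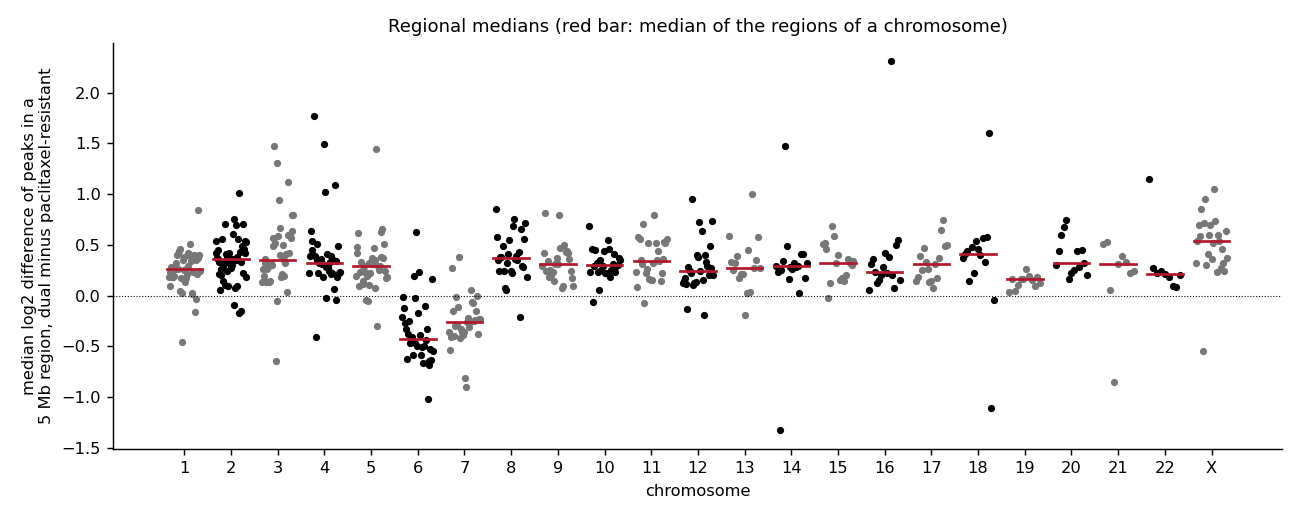
Median log2 difference, dual-resistant minus paclitaxel-resistant, of each of 578 regions of 5 Mb, grouped by chromosome and ordered along it. Red bars are the median of the regions of a chromosome. The red bars of chromosomes 6 and 7 lie below 0, and the extremes are 2.31 on chromosome 16 and -1.33 on chromosome 14.

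Chromosomes 6 and 7 had medians below 0. Called lower were 1839 of 7549 peaks on chromosome 6, with 365 higher, and 1690 of 9610 on chromosome 7, with 396 higher. The median peak differed by -0.37 on chromosome 6 and -0.29 on chromosome 7, while the other chromosomes analysed had medians of 0.12 to 0.45. Against control the medians of chromosomes 6 and 7 were 0.08 and 0.04 in dual-resistant cells and 0.45 and 0.32 in paclitaxel-resistant cells, comparisons that share the libraries of this one and the control libraries. Such scaled reads do not tell a change of copies from a change of access, and copy number was not measured.

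The ligands of NKG2D, a receptor by which natural killer cells see stressed cells, lie on chromosome 6, and 6 of 8 were lower and 0 higher, with a median of -1.12, beside 24.5% lower and 7.03% higher of all genes. MICA had 33.01 and 34.7 CPM in dual-resistant libraries, against 75.9 and 77.4 CPM in paclitaxel-resistant libraries (-1.17, SE 0.11, adjusted p = 2.76e-16). ULBP2 had 4.70 and 5.91 CPM in dual-resistant and 13.7 and 15.8 CPM in paclitaxel-resistant libraries (-1.40), and RAET1G differed by -1.38. After subtraction of the chromosome's median 6 of 8 were lower, with a median of -0.74. After subtraction of 5 Mb medians 4 were lower, with a median of -0.49. Over all 15464 genes, 7477 were lower after the chromosome subtraction, with a median of -0.39. Over genes in 5 Mb regions with at least 50 tested peaks, 7006 were lower after the 5 Mb subtraction, with a median of -0.37. Of 15 HLA class I and antigen processing genes 8 were lower and 0 higher. After loess scaling 6 were lower, beside 11.9% of all genes. With chromosome medians subtracted 7 were lower and 1 higher, with a median of -0.30, beside -0.39 over all genes. With 5 Mb medians subtracted 8 were lower and 1 higher, with a median of -0.34, beside -0.37 over genes. TAP2, a peptide carrier gene, had 48.6 and 49.0 CPM in dual-resistant libraries, against 86.8 and 85.0 CPM in paclitaxel-resistant libraries (-0.81). B2M, on chromosome 15, differed by -0.30 and only by -0.05 after loess scaling.

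**Figure D5:**
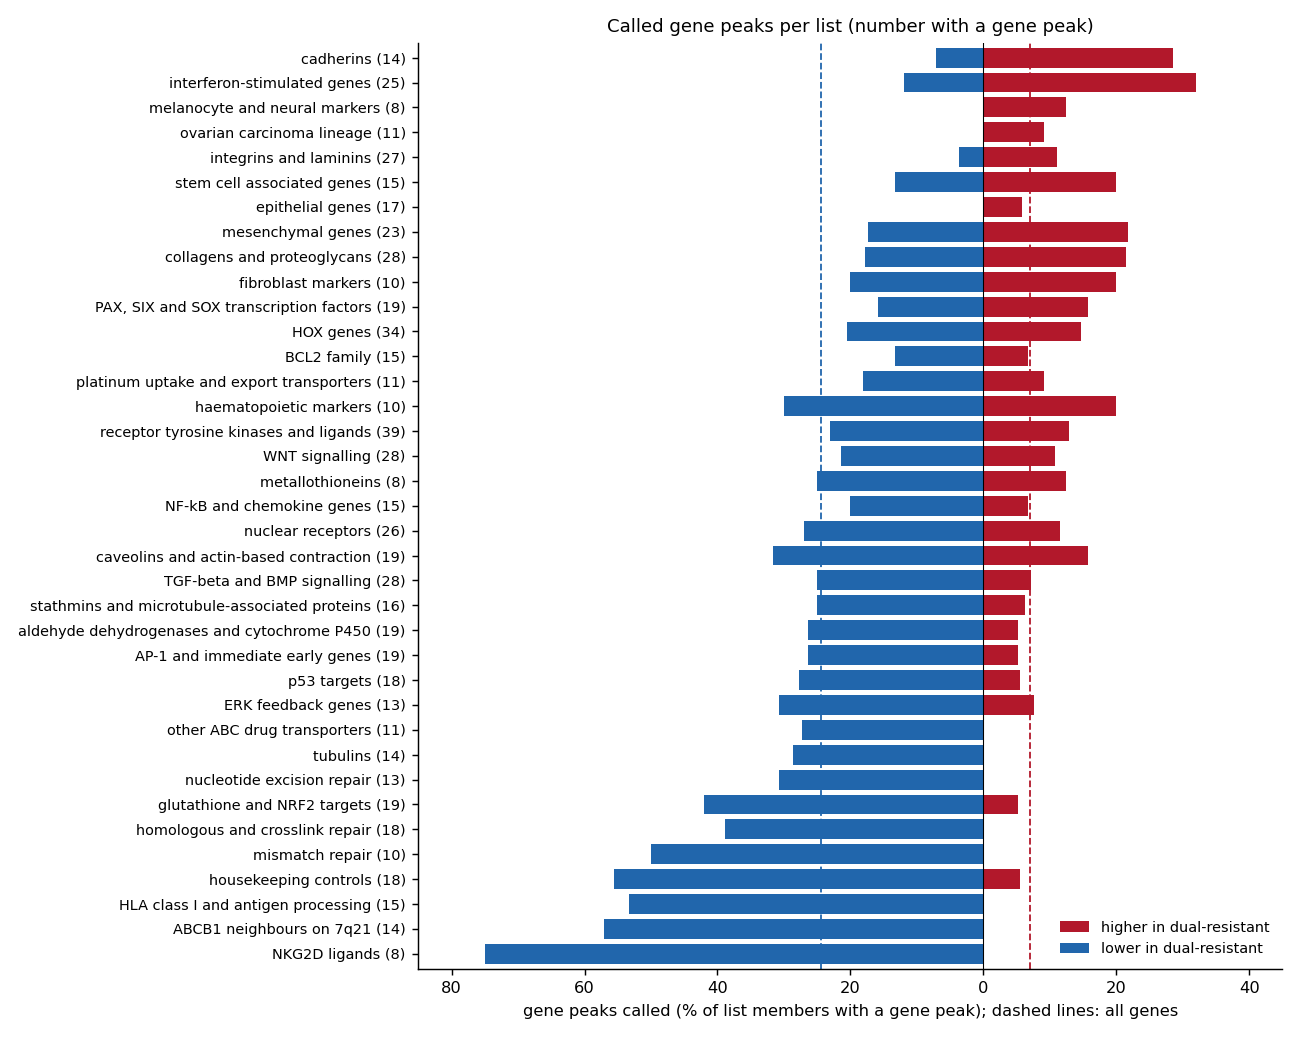
Share of gene peaks called higher (right of 0) and lower (left of 0) in dual-resistant cells for each gene list with at least 8 members measured, in % of members with a gene peak (number in brackets). Dashed lines mark all genes, at 7.03% higher and 24.5% lower. Cadherins and interferon-stimulated genes lie at the top and NKG2D ligands at the bottom.

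In the other lists called members stood beside members that were not called. Of 17 epithelial genes 1 was higher and 0 lower. It was EPCAM, with 14.5 and 14.8 CPM in dual-resistant and 8.13 and 8.20 CPM in paclitaxel-resistant libraries (0.81), a call lost with DESeq2 (adjusted p = 0.0827) and after subtraction of the chromosome's median (adjusted p = 0.0585). Of 23 mesenchymal genes 5 were higher and 4 lower. TAGLN, a smooth muscle actin-binding protein gene, rose by 1.52, MMP2, a matrix protease gene, by 1.49 and TWIST2 by 1.28. MMP2 and TWIST2 were not called with DESeq2 (adjusted p = 0.117 and 0.107) or after loess scaling (adjusted p = 0.0522 and 0.0873). FOXC2, a transcription factor gene, fell by 1.79 and VIM by 0.40, and FOXC2 was not called without dual-resistant library 2 (adjusted p = 0.0566) or without paclitaxel-resistant library 2 (adjusted p = 0.0735). FOXC2 held 1 read in the dual-resistant and 25 in the paclitaxel-resistant pair, a ratio of paclitaxel- over dual-resistant of 25.4 (exact 95% interval 4.15 to 1042). Of 26 nuclear receptor genes 3 were higher, RORB most (1.80), and 7 lower, with RARB at -1.16 and THRB at -1.18, counts close to the 7.03% and 24.5% of all genes. CAVIN3, a coat protein gene of caveolae, had 8.16 and 8.92 CPM in dual-resistant and 1.09 and 1.12 CPM in paclitaxel-resistant libraries (2.49), with 0.517 CPM in control cells. Of 27 integrin and laminin genes 3 were higher and 1 lower, and LAMA1, a laminin chain gene, rose by 1.80. ACTB fell by 1.11 and SRF, the transcription factor of actin genes, by 1.06. These 2 genes lie on chromosomes 7 and 6, and they stood at -0.82 and -0.68 after subtraction of the chromosome's median.

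The difference between dual- and paclitaxel-resistant cells was set beside that between cisplatin-resistant and control cells, which shares no library with it. Of the 23681 peaks higher in dual- against paclitaxel-resistant cells 2557 (10.8%) were also higher in cisplatin-resistant against control cells, where 18.3% of all peaks were higher. Another 4807 (20.3%) were lower there, where 14.9% of all peaks were lower. Of the 11803 lower peaks 2813 (23.8%) were lower and 1454 (12.3%) higher in the other pair. As shares of the other pair's lists, the peaks higher in both were 8.79% of 29093 and those lower in both 11.9% of 23664. Across peaks, which share libraries and are not independent, the 2 differences had r = -0.06 and rho = -0.07.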

How the data were processed

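ATAC-seq reads of 8 A2780 libraries were analysed as a matrix of CPM deposited by the authors over 159451 consensus peaks of 1001 bp, on hg38 per the submitters' processing notes, which name Bowtie2, Picard and MACS2. The labels give neither their settings nor versions. Values were whole multiples of 1 read (100% within 0.01 read). The 158698 peaks with at least 1 CPM in 2 libraries entered limma 3.58.1 (R 4.3.3) on log2(CPM + 0.5), with 4 groups of 2 libraries in 1 fit (4 residual degrees of freedom), a trended prior and Benjamini-Hochberg adjustment over all peaks. Libraries were not rescaled, so a shift of reads between strong and weak peaks enters every value. Genes were matched by RefSeq coordinates: 15464 of 19970 protein-coding genes had a peak. The fit was tested on simulated data. Named genes were the 12 gene peaks with the largest called difference in each direction, the most changed called members of each gene list, genes tied to the 2 drugs, and the genes with the most changed distal peaks, plus the 5 most changed peaks; other names were chosen after their values were seen. The members and lists were chosen with earlier results of these data known. edgeR 4.0.16 and DESeq2 1.42.0 on the recovered reads, other scalings, filters and left-out libraries served as alternatives. Some results that the rules would name are not reported here.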

Additional observations from a re-analysis of the deposited data

Results flagged for a closer look

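The difference between dual- and paclitaxel-resistant cells was itself different from that between cisplatin-resistant and control cells at 54425 of 158698 peaks (34.3%, limma interaction, adjusted p under 0.05). Of the genes tied to the 2 drugs, the interaction was called at the gene peaks of ABCB4 (log2 -1.93), SLC7A11 (0.99), ATP7A (0.62), CDKN1A (-1.02) and TUBB3 (-0.84), where a negative value means that the difference between dual- and paclitaxel-resistant cells was the lower. With 2 libraries a group, no sample could be examined for standing apart from its group.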

How the results depend on the processing

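Counts of calls depended on the scaling and on single libraries. For peaks, counts called higher were 23681 as reported, 12482 after cyclic loess, 12354 after quantile and 14243 after median-ratio scaling, 13269 with edgeR, 8416 with DESeq2, and 11123 and 12388 after subtraction of 5 Mb and chromosome medians. Counts called lower, 11803 as reported, were 19609 after median-ratio scaling, 20170 with edgeR and 18314 after subtraction of chromosome medians. The share of higher among called peaks was 66.7% as reported, 47.7% after loess, 50.5% after quantile and 42.1% after median-ratio scaling, 39.7% with edgeR and 36.04% with DESeq2. For gene peaks, 1087 were higher as reported, 592 after median-ratio scaling, 561 with edgeR, 395 with DESeq2, and 549 and 526 after subtraction of 5 Mb and chromosome medians. Lower gene peaks, 3786 as reported, were 1833 after loess, 1633 after quantile and 7486 after median-ratio scaling, 7680 with edgeR, 6298 with DESeq2, and 7006 and 7477 after the 2 subtractions. Higher distal peaks, 15375 as reported, were 7016 (loess), 7025 (quantile), 8594 (median ratio), 7941 (edgeR), 4716 (DESeq2), 6754 (5 Mb) and 7343 (chromosome). Lower distal peaks, 4937 as reported, were 7414 (loess), 8279 (median ratio) and 8551 (edgeR). The cause of these shifts was not tested.

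Leaving out each library in turn gave 12456 to 23707 peaks higher and 8099 to 11961 lower, 672 to 1128 gene peaks higher and 2457 to 3867 lower, and 7450 to 15446 distal peaks higher and 3255 to 4983 lower. Peaks higher were 12456 without dual-resistant library 1, 14206 without dual-resistant library 2 and 15487 without paclitaxel-resistant library 1. Gene peaks higher were 683 without dual-resistant library 1 and 672 without library 2, and those lower 2501 without dual-resistant library 1 and 2457 without paclitaxel-resistant library 1. Distal peaks lower were 3255 without paclitaxel-resistant library 1 and 3260 without library 2. The replicate block gave 23965 higher and 11866 lower peaks and 1100 and 3782 gene peaks. Same-numbered libraries did not deviate together (r of -0.0006 to 0.0033). The labels do not say whether same-numbered libraries were handled together, and these correlations cannot tell.

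Signs of gene peaks turned at BMPR1B (-0.16 after 5 Mb subtraction), ABCB1 (0.62 and 0.015 after 5 Mb and chromosome subtraction), ERCC1 (0.13 loess, 0.14 quantile), GSTP1 (0.00087 loess, 0.051 quantile), SLC31A1 (0.066 loess, 0.063 quantile), HMGA2 (0.12 under both) and KAT6B (0.084 loess). DLG1 stood at -0.69 and -0.27 after 5 Mb and chromosome subtraction, -0.15 with DESeq2 and median-ratio scaling and -0.16 with edgeR. Without dual-resistant library 1, ERCC1 stood at 0.17 and GSTP1 at 0.00064, and leaving out each library in turn gave -0.24 to 0.17 for ERCC1 and -0.18 to 0.00064 for GSTP1. Of 86 called named results, 73 kept their call and direction under all 21 alternatives.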
